A study of Homo sapiens with 18 samples.

Results

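The 33 genes described here build cholesterol, sense it, move it within and out of the cell, and store it. They were chosen by name for these known roles, from the 60649 genes of the count table. The rule uses no difference between groups but asks that a gene pass a filter on low counts. Earlier results of these data were known when the members were chosen, so their counts beside all genes are a description and no independent test. The filter kept 15390 genes in all, and each of the 33 names was present once among them. They comprise 18 enzymes of synthesis, 5 genes of sterol sensing, 4 of uptake and transport within the cell, 5 of the LXR and efflux branch, and 1 of storage. RNA was sequenced from LNCaP, a human prostate cancer line that responds to androgen through its androgen receptor. All cells were transfected with a siGenome SmartPool, a mixture of siRNAs, which was directed against UPF1, against RCOR1, or against no target (control siRNA). UPF1 is the helicase of nonsense-mediated mRNA decay, and RCOR1 (CoREST) is the scaffold of a chromatin repressor complex. All cells were moved to medium deprived of androgen on the following day. From 48 h after transfection they received R1881, a synthetic androgen, at 5 nM or ethanol (vehicle), and they were collected after a further 48 h. This gave 6 groups of 3 libraries, which the labels call biological triplicates: each of the 3 siRNAs with vehicle, and each with R1881. All comparisons rest on 1 cell line and 1 siRNA pool per target, and cells without transfection were not among the groups.

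Cholesterol is made from acetyl-CoA by way of mevalonate, farnesyl diphosphate, squalene and lanosterol. When sterols are scarce, the escort protein SCAP carries the precursors of SREBP transcription factors from the endoplasmic reticulum to the Golgi, where they are cut. The released factors then raise the genes of synthesis and uptake together with the partner factor NF-Y, which binds CCAAT boxes. INSIG proteins hold SCAP in the endoplasmic reticulum when sterols are plentiful. Oxysterols activate the LXR receptors, which raise exporters such as ABCA1 and ABCG1 and the ligase MYLIP, which marks lipoprotein receptors for degradation. Androgens are known to raise lipid synthesis in LNCaP cells, and SCAP has been described as one of the genes through which they do so.

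Library totals ran from 10299607 to 17338235 counts. Both targeted genes were low where their siRNA had been given. UPF1 lay between 20.5 and 26.8 CPM, the counts of a gene scaled to a common library size, with UPF1 siRNA and between 99.2 and 164 in the other libraries. The log2 fold change of UPF1, with the standard error after ± here and throughout, was -2.56 ± 0.12 (adjusted p = 1.1e-09) in vehicle and -2.51 ± 0.11 (adjusted p = 1.2e-09) in R1881. With RCOR1 siRNA UPF1 was also below control siRNA, at -0.32 ± 0.11 (adjusted p = 0.067, not called) in vehicle. In R1881 that difference was -0.36 ± 0.11 (adjusted p = 0.04). Its part in the results with RCOR1 siRNA was not tested. RCOR1 lay between 9.08 and 15.8 CPM with RCOR1 siRNA and between 68.2 and 107 elsewhere, with log2 fold changes of -2.95 ± 0.15 (adjusted p = 1.9e-08) and -2.67 ± 0.15 (adjusted p = 6.6e-08). FKBP5, a direct androgen receptor target, rose with R1881 by 5.21 ± 0.13 (adjusted p = 5.4e-14) with control siRNA, by 4.78 ± 0.13 (adjusted p = 1.0e-13) with UPF1 siRNA and by 4.98 ± 0.13 (adjusted p = 1.6e-13) with RCOR1 siRNA. In the same order the androgen targets KLK3 rose by 3.61, 3.89 and 2.77 and TMPRSS2 by 3.45, 3.23 and 2.63. The 8 luminal prostate markers examined lay between 151 and 3970 CPM in all libraries. Of 11 markers of basal, stromal, immune and endothelial cells, 7 stayed below 0.1 CPM in every library, and TP63, COL1A2, CD3E and CDH5 were at 0 throughout. The summed level of the 11 was 10.2 to 11.2 CPM in control vehicle, 5.96 to 8.36 in control R1881, 9.89 to 11.9 in UPF1 vehicle, 11.2 to 13.4 in UPF1 R1881, 12.4 to 13.9 in RCOR1 vehicle and 8.42 to 10.9 in RCOR1 R1881, most of it from COL1A1 and KRT14. The part of this signal in the results below was not tested. On the main axis of variation between replicates, described near the end, UPF1 R1881 replicates 1 and 2 scored -0.27 and -0.13. Replicate 3 scored 0.40, the highest of all libraries. The calls in comparisons that use UPF1 R1881 are also given without replicates 1 and 2, which leaves replicate 3 alone in that group. Control R1881 was split as well, with replicate 1 at -0.37 and replicates 2 and 3 at 0.19 and 0.18, and had no such setting.

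Promoter sequences show what the members share apart from their function. RefSeq windows on GRCh38.p14, from 250 bases before to 50 bases after an annotated start, were found for 28 of the 33 members (38 windows). No window was found for ACAT2, FDFT1, ABCG1, SCARB1 and SQLE. The NF-Y box CCAAT, searched on both strands, occurred in at least 1 window of 20 of the 28 members (71.4%), against 39.7% of all 27305 genes with windows. Counted by window, it occurred in 22 of the members' 38 windows and in 34.6% of all 35116. Among the synthesis enzymes 13 of 15 with a window held it, PMVK and CYP51A1 being the 2 without it. In the sensing group INSIG1 and SREBF2 held it, and INSIG2, SCAP and SREBF1 did not. The sterol regulatory element TCACNCCAC, searched on both strands, was found in SREBF2 alone, against 1.13% of all windows, and its match TCACCCCAC begins 133 bases before the start. The core of the androgen response element, ACANNNTGT, occurred in CYP51A1, DHCR7 and MSMO1, or 10.7% of the members with windows against 6.54% of all genes with windows. A match is a run of letters and no measured binding site, and these letters missing from a window say nothing about any factor.

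The sequences of 5 windows are shown because the results turn on these genes: HMGCS1 and INSIG1 were among the members raised most by R1881, NSDHL had the most CCAAT matches together with MVK (5 each), SREBF2 held the sterol regulatory element, and ABCA1, which was lowered most, held none of the 3 motifs. Each is printed 5′ to 3′ on the gene's own strand. Capitals mark CCAAT or its reverse complement ATTGG in all windows, and also TCACCCCAC in SREBF2. In the run CCAATTGG of NSDHL the forward and reverse matches overlap and were counted separately. HMGCS1 has another window, further downstream, without a match.
HMGCS1, chr5:43313363-43313662, minus strand: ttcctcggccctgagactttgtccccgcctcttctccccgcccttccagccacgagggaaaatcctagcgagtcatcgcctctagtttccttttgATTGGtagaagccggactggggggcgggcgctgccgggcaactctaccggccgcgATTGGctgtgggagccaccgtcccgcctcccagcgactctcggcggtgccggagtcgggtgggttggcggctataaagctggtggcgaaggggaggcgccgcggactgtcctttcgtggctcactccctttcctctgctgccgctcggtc
INSIG1, chr7:155297628-155297927, plus strand: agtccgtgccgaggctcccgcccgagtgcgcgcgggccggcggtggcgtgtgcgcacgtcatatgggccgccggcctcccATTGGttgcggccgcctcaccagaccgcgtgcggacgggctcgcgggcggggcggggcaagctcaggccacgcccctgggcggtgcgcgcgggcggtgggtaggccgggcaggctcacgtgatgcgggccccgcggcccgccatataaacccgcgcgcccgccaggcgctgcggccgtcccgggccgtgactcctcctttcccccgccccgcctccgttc
NSDHL, chrX:152830813-152831112, plus strand: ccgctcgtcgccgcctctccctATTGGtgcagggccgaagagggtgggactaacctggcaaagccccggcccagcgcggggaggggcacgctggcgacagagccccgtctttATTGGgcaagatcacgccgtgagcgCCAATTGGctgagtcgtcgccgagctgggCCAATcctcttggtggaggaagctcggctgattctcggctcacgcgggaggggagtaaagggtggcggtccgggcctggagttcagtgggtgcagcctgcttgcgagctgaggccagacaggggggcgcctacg
SREBF2, chr22:41832855-41833154, plus strand: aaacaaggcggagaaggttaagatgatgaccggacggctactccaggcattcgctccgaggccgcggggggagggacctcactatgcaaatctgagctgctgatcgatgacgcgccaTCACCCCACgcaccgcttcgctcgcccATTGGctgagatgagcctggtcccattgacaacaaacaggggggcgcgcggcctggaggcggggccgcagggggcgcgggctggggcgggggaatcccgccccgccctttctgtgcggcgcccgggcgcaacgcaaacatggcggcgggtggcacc
ABCA1, chr9:104928106-104928405, minus strand: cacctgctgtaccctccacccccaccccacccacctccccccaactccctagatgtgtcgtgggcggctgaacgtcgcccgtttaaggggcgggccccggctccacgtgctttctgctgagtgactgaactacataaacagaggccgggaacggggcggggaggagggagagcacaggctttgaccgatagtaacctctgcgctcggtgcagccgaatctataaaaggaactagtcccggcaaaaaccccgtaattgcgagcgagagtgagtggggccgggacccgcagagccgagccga

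Levels of different genes were compared per kilobase of the union of their exons (GENCODE 29, GRCh38), and gene coordinates below are from the same annotation. In control vehicle TM7SF2, one of the sterol reductases, was highest at 91.3 CPM per kilobase, followed by SREBF1 at 42.6 and the lanosterol demethylase CYP51A1 at 33.5. NR1H3 at 2.13 and ABCA1 at 0.474 were lowest. In control R1881 INSIG1 was the highest member at 71.2 CPM per kilobase, HMGCS1 stood at 63.6 and TM7SF2 at 60.2, while ABCA1 was at 0.0192. Fewer reads of a gene can mean fewer cells or less RNA per cell, and bulk libraries do not tell these apart. Exons of 15 members overlap those of another gene, among them ACAT2 with TCP1, IDI1 with IDI2-AS1, TM7SF2 with VPS51 and STARD4 with STARD4-AS1. Reads in such overlaps may belong to either gene, and no source used here gives the strand setting of the counting. TM7SF2, CYP51A1 and NPC2 each overlap a gene on their own strand, where that setting would not separate the reads. There are 4 members with pseudogenes by symbol: IDI1, FDPS, CYP51A1 and HSD17B7. The largest such count was 365 for HSD17B7P2, beside 4532 for HSD17B7, over all 18 libraries.

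With control siRNA, R1881 raised most of the synthesis pathway and lowered TM7SF2, INSIG2, ABCG1 and MYLIP. Of the 33 members 22 rose and 5 fell, at a Benjamini-Hochberg adjusted p under 0.05 in edgeR's quasi-likelihood test, and 6 were not called. The fifth fall is ABCA1, which passed the low-count filter through the vehicle groups alone and so had to differ, and without it 4 of 32 members fell. Among all 15390 genes tested 20.1% rose and 17.6% fell. The members' median log2 fold change was 0.70, and that of all genes was 0.02. All 7 enzymes from acetoacetyl-CoA to farnesyl diphosphate rose, 8 of the 11 enzymes of squalene and sterols rose and 1 fell, 3 of 5 sensing genes rose and 1 fell, 3 of 4 uptake and transport genes rose, 3 of 5 genes of the LXR and efflux group fell (ABCA1 among them), and the storage gene SOAT1 rose. FDFT1, HSD17B7, SREBF1, NPC2, NR1H2 and NR1H3 were not called.

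The R1881 response was tested within each siRNA arm against that arm's own vehicle libraries. With UPF1 siRNA 20 members rose and 4 fell (all genes: 21.6% and 20%), with a median of 0.50 against -0.01 for all genes. With RCOR1 siRNA 19 rose and 5 fell (all genes: 16.3% and 14.9%), with a median of 0.66 against 0.02. In all 3 arms 17 members rose, 4 fell (TM7SF2, INSIG2, ABCA1 and ABCG1), and none was called in opposite directions. The share of all genes called alike in more than 1 comparison was not counted. Such agreement, here and below, is therefore not a result about the members. Leaving ABCA1 aside for the reason given, 3 members fell in all 3 arms, and the falls were 4, 3 and 4 with control, UPF1 and RCOR1 siRNA. Of the 18 synthesis enzymes 15 rose with control siRNA, 13 with UPF1 siRNA and 13 with RCOR1 siRNA, and 1, TM7SF2, fell in each arm. Scaling by library size alone moved the median of all genes to -0.22, -0.10 and -0.17 in the 3 arms. The share of rises among all calls was then 26.5%, 37.3% and 29.3% instead of 53.3%, 51.9% and 52.3%, while the members gave 18 rises and 5 falls, 18 and 4, and 17 and 7. That scaling ended the calls of PMVK (0.10), DHCR7 (0.32), SCARB1 (0.15) and STARD4 (0.55) with control siRNA, of SREBF1 (0.30) and SCARB1 (0.28) with UPF1 siRNA, and of FDPS (0.25) and DHCR7 (0.31) with RCOR1 siRNA, where NPC2 (-0.44) and NR1H3 (-0.48) were called. Without UPF1 R1881 replicates 1 and 2, the UPF1 arm had 18 calls, 13 higher and 5 lower. MVD (0.43), FDPS (0.37), CYP51A1 (0.34), MSMO1 (0.55), DHCR7 (0.38), SREBF1 (0.23) and SCARB1 (0.17) were then no longer called, and MYLIP (-0.47) was.

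**Figure D1:**
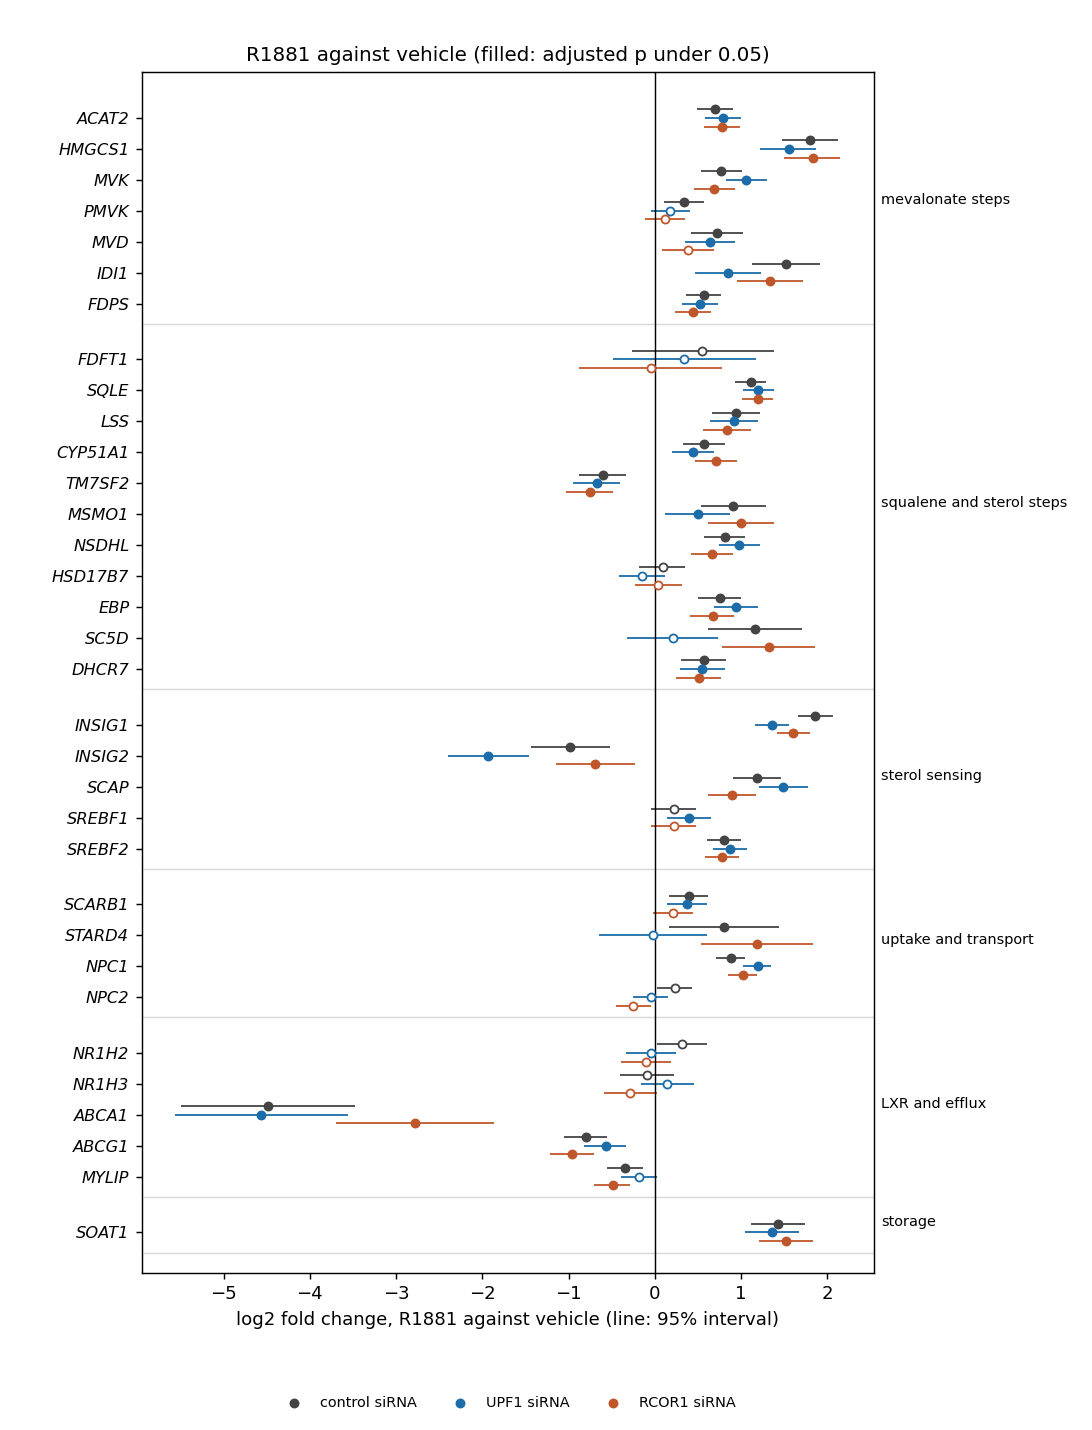
Log2 fold change of the 33 members, R1881 against vehicle, with control, UPF1 or RCOR1 siRNA, from edgeR with 3 libraries a group. Points are estimates, lines are 95% intervals, filled points have an adjusted p under 0.05, and the genes are grouped by role. Synthesis enzymes lie right of 0 in all 3 arms except TM7SF2, HSD17B7 and FDFT1, and ABCA1 lies farthest left at -4.48, -4.56 and -2.78.

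HMGCS1 (chr5:43289395-43313512, minus strand), the cytosolic synthase that condenses acetyl-CoA units on the way to mevalonate, had the steepest rise of the enzymes with control siRNA. Its level was 97.2, 70.7 and 90.9 CPM in control vehicle and 232, 338 and 328 in control R1881. With UPF1 siRNA it went from 97.5, 99.6 and 110 to 280, 296 and 322, and with RCOR1 siRNA from 75.6, 69.5 and 96 to 264, 288 and 303. Vehicle and R1881 libraries were far apart in every arm and never overlapped. The log2 fold change was 1.80 ± 0.15 (adjusted p = 1.2e-07) with control siRNA, 1.55 ± 0.15 (adjusted p = 6.5e-07) with UPF1 siRNA and 1.83 ± 0.15 (adjusted p = 1.3e-07) with RCOR1 siRNA.

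IDI1 (chr10:1039152-1049170, minus strand), which isomerises the activated isoprene unit, rose from 55.5, 47 and 53.9 CPM to 107, 165 and 177 with control siRNA. It went from 58.8, 67.9 and 68.3 to 97.5, 110 and 144 with UPF1 siRNA, and from 44.6, 40.4 and 52.9 to 104, 111 and 134 with RCOR1 siRNA. Vehicle and R1881 libraries did not overlap in any arm, but control R1881 replicate 1 was well below the other two of its group. In the same order of arms, log2 fold changes were 1.52 ± 0.18 (adjusted p = 5.6e-06), 0.85 ± 0.18 (adjusted p = 0.0013) and 1.34 ± 0.18 (adjusted p = 3.1e-05).

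MVK (chr12:109573255-109598117, plus strand), mevalonate kinase, stood at 19.7, 25.2 and 21.9 CPM in control vehicle and 41.3, 35.6 and 37.2 in control R1881. It went from 24.1, 22.2 and 19.6 to 49.6, 46.3 and 41.8 with UPF1 siRNA and from 23, 22.1 and 18.9 to 36.4, 34.7 and 32.6 with RCOR1 siRNA. All R1881 libraries were above all vehicle libraries. R1881 gave log2 fold changes of 0.77 ± 0.11 (adjusted p = 4.5e-05), 1.06 ± 0.11 (adjusted p = 1.6e-06) and 0.69 ± 0.11 (adjusted p = 1.7e-04), the middle one being the only one of the 3 above 1.

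MVD (chr16:88651935-88663161, minus strand), the decarboxylase that ends the mevalonate steps, was 18.4, 21.5 and 15.3 CPM in control vehicle and 32.9, 30.5 and 27.4 in control R1881. It went from 32.9, 25.7 and 24.6 to 50.3, 41.1 and 38.3 with UPF1 siRNA, and from 17.3, 15.8 and 14.7 to 21.6, 21 and 19.6 with RCOR1 siRNA. The libraries with UPF1 siRNA were the highest in both treatments. MVD rose with R1881 by 0.72 ± 0.14 (adjusted p = 7.7e-04) with control siRNA and by 0.64 ± 0.14 (adjusted p = 0.0016) with UPF1 siRNA, and its difference with RCOR1 siRNA, 0.38 ± 0.14 (adjusted p = 0.055), missed the threshold although those groups did not overlap. It passed when any 1 of 4 libraries of other groups was left out, each time at 0.38.

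Of the other mevalonate genes, ACAT2 and FDPS were called in every arm and PMVK in 1. ACAT2, the cytosolic thiolase that makes acetoacetyl-CoA, rose by 0.70, 0.79 and 0.78 with control, UPF1 and RCOR1 siRNA, and FDPS, which makes farnesyl diphosphate, by 0.57, 0.52 and 0.44. PMVK, phosphomevalonate kinase, had 0.34 ± 0.11 (adjusted p = 0.02) with control siRNA and was not called with UPF1 siRNA (0.18) or RCOR1 siRNA (0.12). That call was lost when any 1 of 4 libraries was left out, control R1881 replicates 1 and 3 and control vehicle replicates 1 and 3, which gave log2 fold changes of 0.26, 0.29, 0.31 and 0.26.

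SQLE, squalene epoxidase and a rate-limiting step of the later pathway, was 45.3, 44 and 42.6 CPM in control vehicle and 84.4, 97.9 and 103 in control R1881. It went from 33.6, 37 and 34.6 to 80.9, 85.7 and 75.2 with UPF1 siRNA and from 34.1, 34.7 and 36.1 to 79.4, 75.3 and 84.6 with RCOR1 siRNA. The replicates lay close together and the treatments did not overlap in any arm. The fitted responses, as log2 fold changes, were 1.11 ± 0.084 (adjusted p = 2.8e-08), 1.20 ± 0.084 (adjusted p = 1.2e-08) and 1.19 ± 0.084 (adjusted p = 1.7e-08).

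SC5D (chr11:121292453-121308694, plus strand), the desaturase of one of the last steps, was 82.9, 54 and 75.7 CPM in control vehicle and 111, 179 and 185 in control R1881. With RCOR1 siRNA it went from 83.7, 80.2 and 115 to 187, 226 and 284. With UPF1 siRNA it went from 218, 270 and 290 to 222, 262 and 414. The UPF1 vehicle libraries were already above every library of control R1881, and within the UPF1 arm the treatments overlapped. SC5D rose with R1881 by 1.16 ± 0.25 (adjusted p = 0.0017) with control siRNA and 1.32 ± 0.25 (adjusted p = 7.7e-04) with RCOR1 siRNA, and was not called with UPF1 siRNA at 0.21 ± 0.25 (adjusted p = 0.53).

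MSMO1 (chr4:165327623-165343160, plus strand), the methylsterol oxidase, was 53.3, 51.3 and 61.9 CPM in control vehicle and 77.6, 116 and 120 in control R1881. It went from 39.4, 41.8 and 51.8 to 53.2, 68.2 and 66.3 with UPF1 siRNA, and from 55.5, 50.1 and 73.6 to 106, 117 and 135 with RCOR1 siRNA. R1881 libraries were above vehicle libraries in each arm, with the narrowest gap in the UPF1 arm. The 3 arms gave log2 fold changes of 0.91 ± 0.18 (adjusted p = 6.7e-04), 0.50 ± 0.18 (adjusted p = 0.036) and 1.0 ± 0.18 (adjusted p = 3.9e-04). In the UPF1 arm the call was lost without UPF1 R1881 replicate 2 (0.43) or 3 (0.46), or without UPF1 vehicle replicate 1 (0.42) or 2 (0.45).

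The following 5 enzymes of the sterol steps were called higher in all 3 arms with all libraries and TMM scaling, and the settings that end the calls of DHCR7 and CYP51A1 are given above. LSS, which closes the ring to lanosterol, rose by 0.94, 0.92 and 0.84 with control, UPF1 and RCOR1 siRNA. NSDHL, a sterol dehydrogenase, rose by 0.81, 0.98 and 0.66, and the isomerase EBP by 0.75, 0.94 and 0.67. CYP51A1 rose by 0.57, 0.44 and 0.71, and DHCR7, a terminal reductase, by 0.57, 0.55 and 0.51. HSD17B7, a ketosteroid reductase of the same steps, was not called in any arm and stayed within -0.15 to 0.09. FDFT1, squalene synthase, was not called either, with 0.55, 0.34 and -0.05. Its replicates were far apart, at 21.7, 50.6 and 42.3 CPM in control vehicle and 39.8, 90.3 and 37.6 in control R1881, and its interval with control siRNA ran from -0.27 to 1.38.

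TM7SF2 (chr11:65111845-65116384, plus strand) was the 1 synthesis enzyme that fell. It was 274, 352 and 309 CPM in control vehicle and 233, 194 and 188 in control R1881. It went from 382, 323 and 290 to 227, 213 and 184 with UPF1 siRNA and from 314, 334 and 257 to 187, 183 and 167 with RCOR1 siRNA. Every R1881 library lay below every vehicle library. The log2 fold changes were -0.60 ± 0.13 (adjusted p = 0.0015), -0.67 ± 0.13 (adjusted p = 6.3e-04) and -0.75 ± 0.13 (adjusted p = 2.9e-04). TM7SF2 shares its step with another reductase, which was not among the members, and its exons overlap those of VPS51.

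**Figure D2:**
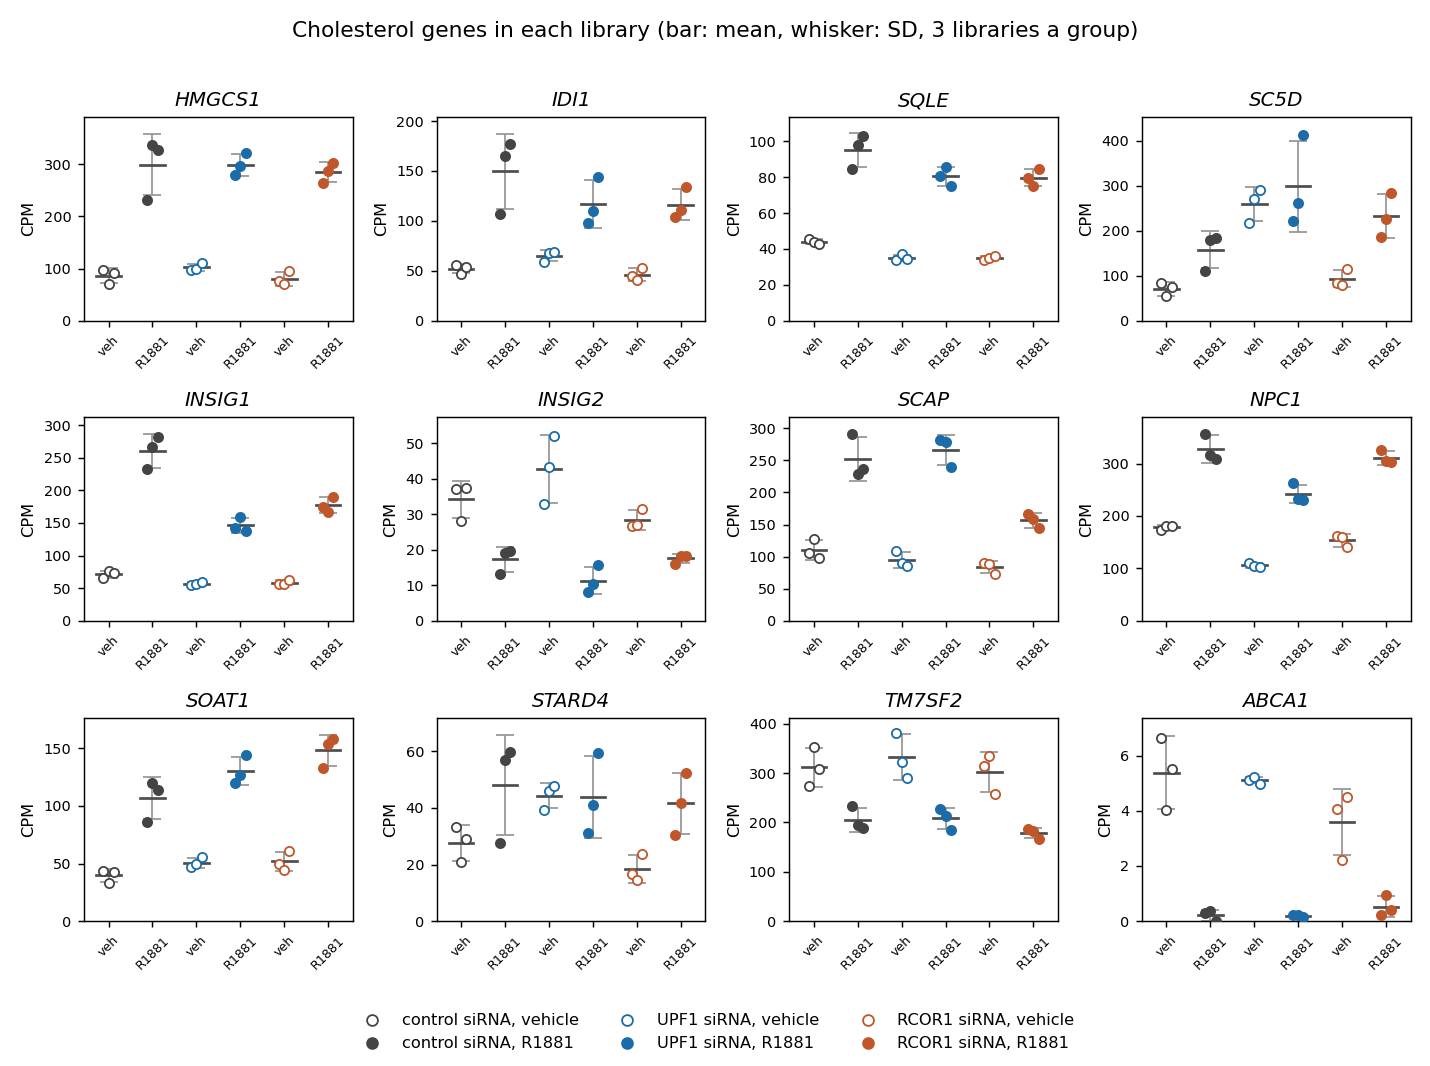
Level of 12 members in each of the 18 libraries, in TMM-scaled CPM, by siRNA (colour) and treatment (open, vehicle; filled, R1881). Horizontal bars are means and whiskers SD over 3 libraries, and each axis starts at 0. INSIG1 moves from 65.4 to 76 CPM in control vehicle to 232 to 282 in control R1881, whereas INSIG2, TM7SF2 and ABCA1 move down, and SC5D is raised with UPF1 siRNA before R1881 is added.

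The sensing genes split. INSIG1 (chr7:155297776-155310235, plus strand) had the steepest rise of the 33 members with control siRNA. It was 65.4, 76 and 73.3 CPM in control vehicle and 232, 266 and 282 in control R1881. It went from 55, 56.7 and 59.1 to 143, 159 and 137 with UPF1 siRNA and from 56.1, 55.9 and 63 to 175, 167 and 190 with RCOR1 siRNA. In R1881 the 3 groups did not overlap, control being highest and UPF1 lowest. In the same order of arms, log2 fold changes were 1.86 ± 0.094 (adjusted p = 2.1e-10), 1.36 ± 0.093 (adjusted p = 9.2e-09) and 1.6 ± 0.094 (adjusted p = 1.6e-09).

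INSIG2 (chr2:118088452-118110997, plus strand), the related retention protein, moved the other way. It was 37.1, 28.2 and 37.3 CPM in control vehicle and 13.3, 19 and 19.8 in control R1881. It fell from 33, 43.3 and 52.1 to 8.13, 10.3 and 15.6 with UPF1 siRNA and from 26.7, 27 and 31.5 to 16.1, 18.4 and 18.4 with RCOR1 siRNA. No R1881 library reached the lowest vehicle library of its arm. R1881 gave log2 fold changes of -0.98 ± 0.22 (adjusted p = 0.0018), -1.93 ± 0.22 (adjusted p = 4.0e-06) and -0.69 ± 0.22 (adjusted p = 0.023). The call with RCOR1 siRNA was lost without RCOR1 R1881 replicate 1 (-0.63) or 3 (-0.72), or without RCOR1 vehicle replicate 3 (-0.61).

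SCAP (chr3:47413694-47477126, minus strand) was 106, 128 and 97.8 CPM in control vehicle and 291, 228 and 236 in control R1881. It went from 109, 90.3 and 85.5 to 281, 279 and 239 with UPF1 siRNA and from 90, 88.8 and 73.2 to 167, 158 and 144 with RCOR1 siRNA. R1881 libraries were above vehicle libraries in all arms, and in R1881 those with RCOR1 siRNA were below all others. The fitted responses, as log2 fold changes, were 1.18 ± 0.13 (adjusted p = 2.2e-06), 1.49 ± 0.13 (adjusted p = 1.9e-07) and 0.89 ± 0.13 (adjusted p = 5.8e-05). SREBF2, which encodes the SREBP that mainly drives cholesterol synthesis, rose by 0.80, 0.87 and 0.78 with control, UPF1 and RCOR1 siRNA. SREBF1, whose products drive fatty acid genes more strongly, was called in the UPF1 arm alone at 0.40 ± 0.12 (adjusted p = 0.016), and gave 0.22 in the control arm and 0.22 in the RCOR1 arm. The SREBF1 call was lost without UPF1 R1881 replicate 1 (0.35) or UPF1 vehicle replicate 3 (0.33), and without control vehicle replicate 2 SREBF1 was called with control siRNA at 0.35.

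Among transport genes, NPC1 (chr18:23506184-23586898, minus strand), the membrane protein that exports cholesterol from lysosomes, was 174, 181 and 180 CPM in control vehicle and 357, 317 and 308 in control R1881. It went from 111, 104 and 103 to 262, 233 and 230 with UPF1 siRNA and from 161, 159 and 140 to 326, 304 and 302 with RCOR1 siRNA. Treatments did not overlap, and the UPF1 group was the lowest of the 3 within each treatment. The 3 arms gave log2 fold changes of 0.88 ± 0.077 (adjusted p = 1.8e-07), 1.19 ± 0.078 (adjusted p = 5.7e-09) and 1.02 ± 0.078 (adjusted p = 4.2e-08). NPC2, its soluble partner in the lysosome, was not called in any arm, with 0.23, -0.05 and -0.25, although the RCOR1 value was called when 1 of 4 libraries was left out (-0.31 without RCOR1 vehicle replicate 3 or RCOR1 R1881 replicate 1, -0.25 without UPF1 vehicle replicate 1, -0.27 without control R1881 replicate 1). Scaling by library size alone also called it, at -0.44.

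STARD4 (chr5:111496033-111512590, minus strand), which carries sterol between membranes, was 33.1, 20.8 and 28.9 CPM in control vehicle and 27.6, 57.1 and 59.6 in control R1881. It went from 39.2, 46.1 and 47.8 to 31, 40.9 and 59.4 with UPF1 siRNA, and from 16.8, 14.5 and 23.9 to 30.6, 41.8 and 52.4 with RCOR1 siRNA. The treatments overlapped in the control and UPF1 arms and were apart in the RCOR1 arm. The log2 fold changes were 0.80 ± 0.3 (adjusted p = 0.046), -0.02 ± 0.29 (adjusted p = 0.96) and 1.18 ± 0.3 (adjusted p = 0.0072). The control call was lost when any 1 of 10 libraries was left out, with log2 fold changes from 0.59 (without control R1881 replicate 3) to 0.82 (without control vehicle replicate 3). SCARB1, a scavenger receptor that takes up cholesterol esters from lipoproteins, rose by 0.39 ± 0.11 (adjusted p = 0.01) with control siRNA and by 0.37 ± 0.11 (adjusted p = 0.013) with UPF1 siRNA, and had 0.21 with RCOR1 siRNA. Without control R1881 replicate 1 or control vehicle replicate 1 its control value was 0.25 or 0.32, and without UPF1 R1881 replicate 1 or UPF1 vehicle replicate 3 its UPF1 value was 0.29 or 0.34, all no longer called.

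SOAT1 (chr1:179293714-179358680, plus strand), which esterifies cholesterol for storage in lipid droplets, was 43.4, 33.2 and 42.5 CPM in control vehicle and 86.4, 120 and 114 in control R1881. It went from 47.2, 49.6 and 55.3 to 120, 127 and 144 with UPF1 siRNA and from 49.7, 44.8 and 60.9 to 133, 154 and 158 with RCOR1 siRNA. The treatments were wide apart in each arm. In the same order of arms, log2 fold changes were 1.43 ± 0.15 (adjusted p = 9.8e-07), 1.36 ± 0.15 (adjusted p = 1.7e-06) and 1.52 ± 0.15 (adjusted p = 6.5e-07).

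The exporters went down with R1881. ABCA1 (chr9:104781002-104928237, minus strand), which loads cholesterol onto apolipoproteins, had 100, 58 and 60 counts in control vehicle and 4, 5 and 0 in control R1881. It went from 78, 66 and 69 counts to 4, 3 and 2 with UPF1 siRNA, and from 65, 32 and 56 to 3, 11 and 5 with RCOR1 siRNA. Every vehicle library held more counts than every R1881 library. Summed over 3 libraries the counts fell from 218 to 9, from 213 to 9 and from 153 to 19. The fitted log2 fold changes were -4.48 ± 0.47 (adjusted p = 1.3e-06), -4.56 ± 0.47 (adjusted p = 1.2e-06) and -2.78 ± 0.43 (adjusted p = 1.0e-04). Given how ABCA1 passed the filter, these values are a description.

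ABCG1 (chr21:42199689-42297244, plus strand), which exports cholesterol to lipoprotein particles, was 31.5, 33.7 and 35.2 CPM in control vehicle and 23.1, 16.2 and 18.4 in control R1881. It went from 50.1, 50.3 and 44.7 to 35.2, 31.6 and 30.8 with UPF1 siRNA, and from 35.9, 33.9 and 30.8 to 15.8, 18.6 and 17.6 with RCOR1 siRNA. R1881 libraries were below vehicle libraries in each arm, and both UPF1 groups were above the other groups of the same treatment. R1881 gave log2 fold changes of -0.80 ± 0.12 (adjusted p = 5.1e-05), -0.57 ± 0.12 (adjusted p = 9.0e-04) and -0.96 ± 0.12 (adjusted p = 1.2e-05). MYLIP fell, with log2 fold changes of -0.35 ± 0.098 (adjusted p = 0.0098) with control siRNA and -0.49 ± 0.098 (adjusted p = 9.8e-04) with RCOR1 siRNA, and with UPF1 siRNA its value of -0.18 ± 0.098 (adjusted p = 0.16) was not called. The receptors NR1H2 (LXR beta) and NR1H3 (LXR alpha) were not called in any arm: NR1H2 had 0.31, -0.04 and -0.10, and NR1H3 had -0.09, 0.14 and -0.29. Without control vehicle replicate 2, NR1H2 was called with control siRNA at 0.42.

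Whether the siRNAs changed the R1881 response was tested as an interaction, the response with the targeting siRNA minus that with control siRNA. No member was called by edgeR in either interaction. Among all genes it called 1.35% higher and 1.37% lower for UPF1, and 0.227% and 0.539% for RCOR1. At an unadjusted p under 0.05 there were 5 members for UPF1, beside 19.6% of all genes, and 3 for RCOR1 (ABCA1 among them), beside 10.2%. DESeq2 called 2 members for UPF1, beside 4.47% of all genes it tested, and 0 for RCOR1, beside 1.15%. Counts over all genes depended on single libraries: the UPF1 interaction had 419 calls, and between 185 (without control R1881 replicate 3) and 1166 (without UPF1 R1881 replicate 3) with 1 library left out. Without both UPF1 R1881 replicates 1 and 2 it had 60, with no member among them. The RCOR1 interaction had 118, and between 50 (without control R1881 replicate 2) and 124. The member closest to the threshold was INSIG1 in the UPF1 interaction, at -0.50 ± 0.13 (adjusted p = 0.051), unadjusted p = 0.0014. DESeq2 called this at -0.47 (adjusted p = 0.029), and INSIG2 at -0.92 (adjusted p = 0.046), for which edgeR gave -0.95 ± 0.31 (adjusted p = 0.12). The other 3 members with an unadjusted p under 0.05 in the UPF1 interaction were IDI1 at -0.67 ± 0.25 (adjusted p = 0.17), SC5D at -0.95 ± 0.35 (adjusted p = 0.16) and NPC1 at 0.31 ± 0.11 (adjusted p = 0.14). Without control R1881 replicate 1, edgeR called 4 members in this interaction: IDI1 (-0.80), INSIG1 (-0.50), INSIG2 (-1.04) and NPC1 (0.45). Without UPF1 R1881 replicate 3 it called 2: INSIG2 (-1.23) and SC5D (-1.25). In the RCOR1 interaction the members with an unadjusted p under 0.05 were NPC2 at -0.48 ± 0.13 (adjusted p = 0.14), ABCA1 at 1.70 ± 0.76 (adjusted p = 0.45) and NR1H2 at -0.41 ± 0.19 (adjusted p = 0.49). The ABCA1 value rests on 9 and 19 summed counts in control R1881 and RCOR1 R1881. Given how ABCA1 passed the filter, it is a description. Scaling by library size alone moved the median of all genes to 0.15 in the UPF1 interaction, and the share of higher values among all calls from 49.6% to 75.2% for UPF1 and from 29.7% to 50.9% for RCOR1.

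In vehicle, UPF1 siRNA raised 6 members and lowered 8, beside 18.5% and 16% of all genes, with medians of 0.03 for the members and 0.03 for all genes. The members' share of calls, 42.4%, was near that of all genes, 34.6%. SC5D had the largest change. Its lowest library with UPF1 siRNA stood at 218 CPM and its highest with control siRNA at 82.9, a log2 fold change of 1.87 ± 0.26 (adjusted p = 3.8e-05). MVD rose by 0.59 ± 0.14 (adjusted p = 0.0041), NPC2 by 0.57 ± 0.095 (adjusted p = 2.1e-04) and ABCG1 by 0.53 ± 0.12 (adjusted p = 0.0019). HSD17B7 and PMVK rose by 0.41 and 0.32. NPC1 had the largest fall at -0.75 ± 0.078 (adjusted p = 2.3e-06), followed by SREBF1 at -0.52 ± 0.12 (adjusted p = 0.0034). NSDHL, EBP, MYLIP, INSIG1, SQLE and FDPS fell by between 0.31 and 0.41 on the log2 scale.

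Of these 14 calls, 9 held whichever of the 18 libraries was left out: MVD, SQLE, SC5D, INSIG1, SREBF1, NPC1, NPC2, ABCG1 and MYLIP. HSD17B7 moved to 0.25 without control vehicle replicate 1 and EBP to -0.23 without control vehicle replicate 2, and both were then not called. FDPS was lost without UPF1 vehicle replicate 2 (-0.22) or control vehicle replicate 2 (-0.23), NSDHL without UPF1 vehicle replicate 2 (-0.34) or control vehicle replicate 2 (-0.31), and HSD17B7 also without UPF1 vehicle replicate 1 (0.38) or 2 (0.39). PMVK was lost when any 1 of 7 libraries was left out.

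In R1881, UPF1 siRNA raised 4 members and lowered 7 (all genes: 17.6% and 15.7%), with a median of -0.14 against -0.00 for all genes. SC5D rose by 0.92 ± 0.25 (adjusted p = 0.011), ABCG1 by 0.76 ± 0.12 (adjusted p = 1.7e-04), MVD by 0.51 ± 0.14 (adjusted p = 0.0099) and NPC2 by 0.30 ± 0.095 (adjusted p = 0.024). These 4 had risen in vehicle too. INSIG1 fell, with a log2 fold change of -0.83 ± 0.091 (adjusted p = 7.0e-06), the UPF1 libraries standing at 137 to 159 CPM and the control libraries at 232 to 282. MSMO1 was -0.74 ± 0.18 (adjusted p = 0.0047), INSIG2 -0.63 ± 0.22 (adjusted p = 0.042) and NPC1 -0.44 ± 0.077 (adjusted p = 4.6e-04). FDPS, SREBF1 and SQLE had -0.36, -0.34 and -0.24. FDPS, SQLE, INSIG1, SREBF1 and NPC1 were lower with UPF1 siRNA in both treatments. Scaling by library size alone gave 8 members higher and 3 lower, and moved the median of all genes to 0.12 and the share of rises among all calls from 52.8% to 67.1%.

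Of the 11 calls in R1881, FDPS, MSMO1, INSIG1, NPC1 and ABCG1 held whichever library was left out. SC5D fell to 0.62 (adjusted p = 0.055) without UPF1 R1881 replicate 3, the library in which it was highest. INSIG2, which overlapped between the groups, gave -0.42 without UPF1 R1881 replicate 1 and was lost in 10 such settings. The count of calls was 6 without UPF1 R1881 replicate 1 and 7 without control R1881 replicate 2 or 3. MVK (0.34), IDI1 (-0.52) and NR1H3 (0.46) were called without UPF1 R1881 replicate 3, and MVK (0.35) and IDI1 (-0.54) also without control R1881 replicate 1. SREBF1 gave -0.23 without control R1881 replicate 1. Without both UPF1 R1881 replicates 1 and 2, where the remaining library is taken to vary like the other groups, 6 members were called, 2 higher and 4 lower. INSIG2 was then -0.21, MVD 0.28, SQLE -0.39, SREBF1 -0.54, MSMO1 -0.71 and NPC2 0.20, all not called, and MYLIP was called at -0.52.

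RCOR1 siRNA gave fewer calls than UPF1 siRNA, among the members and among all genes alike. With RCOR1 siRNA 18.2% of the members were called in vehicle, beside 11.5% of all genes, and 24.2% in R1881, beside 12.4%. For UPF1 siRNA the shares were 42.4% beside 34.6% in vehicle and 33.3% beside 33.3% in R1881. In vehicle 1 rose and 5 fell (all genes: 5.31% and 6.21%), with a median of -0.17 against -0.01. EBP was lower at -0.50 ± 0.12 (adjusted p = 0.012), as were SREBF1 at -0.44 ± 0.12 (adjusted p = 0.028), SQLE at -0.33 ± 0.084 (adjusted p = 0.018), FDPS at -0.33 ± 0.098 (adjusted p = 0.039) and INSIG1 at -0.29, which was at the threshold. NPC2 was higher at 0.31 ± 0.095 (adjusted p = 0.044). None of these 6 calls held in every setting that left out 1 library: between 1 and 6 members were called, with 1 when RCOR1 vehicle replicate 1 or control vehicle replicate 2 was left out, 2 without RCOR1 vehicle replicate 2 or control R1881 replicate 3, and 3 without control vehicle replicate 3, control R1881 replicate 2 or UPF1 R1881 replicate 2. With control vehicle replicate 2 left out, EBP was -0.33.

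In R1881, RCOR1 siRNA raised SOAT1 and lowered 7 members (all genes: 5.06% and 7.33%), with a median of -0.20 against -0.01. SCAP was -0.69 ± 0.13 (adjusted p = 0.0023), with all RCOR1 libraries below all control libraries. EBP was -0.59 ± 0.12 (adjusted p = 0.0038), INSIG1 -0.55 ± 0.091 (adjusted p = 8.7e-04) and FDPS -0.46 ± 0.098 (adjusted p = 0.0055). These 4 held whichever library was left out. MVD had -0.55, NR1H2 -0.45, SREBF1 -0.44 and SOAT1 0.47, and each was lost in at least 4 such settings, those without RCOR1 R1881 replicate 2 or 3 among them. Leaving out either of those libraries left 4 members called. IDI1 (-0.55) and SQLE (-0.32) were called without control R1881 replicate 1. Scaling by library size alone left 1 higher and 3 lower, with rises making up 67.7% of all calls instead of 40.8%. FDPS, EBP, INSIG1 and SREBF1 were lower with RCOR1 siRNA in both treatments, and no member was higher in both.

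**Figure D3:**
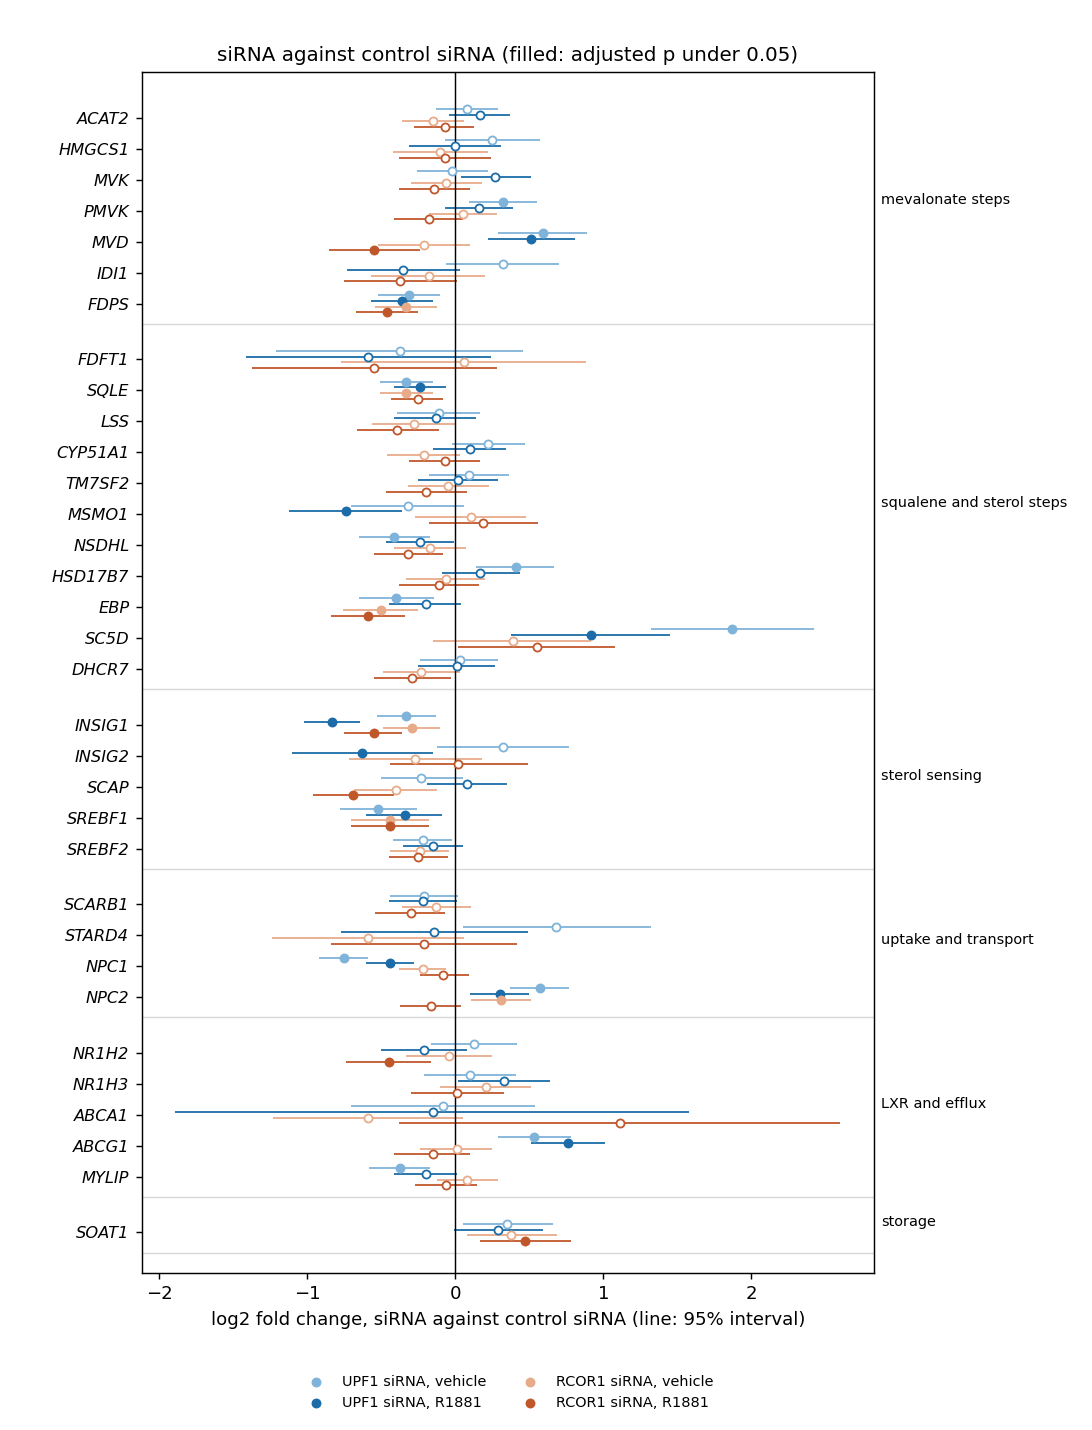
Log2 fold change of the 33 members with UPF1 or RCOR1 siRNA relative to control siRNA, for each treatment, from edgeR with 3 libraries a group. Points are estimates, lines are 95% intervals, and filled points have an adjusted p under 0.05. SC5D stands out to the right with UPF1 siRNA (1.87 in vehicle, 0.92 in R1881), and with RCOR1 siRNA the farthest called point is SCAP in R1881 at -0.69.

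Both siRNAs were compared with the same control libraries, so likeness between their effects is not a result, and the 2 siRNAs were also set against each other. In vehicle 9 members were higher with UPF1 than with RCOR1 siRNA and 2 were lower (all genes: 18.2% and 14.9%). The largest differences were SC5D at 1.48 ± 0.25 (adjusted p = 3.2e-04), STARD4 at 1.27 ± 0.3 (adjusted p = 0.0042) and MVD at 0.80 ± 0.14 (adjusted p = 4.4e-04), while NPC1 was lower at -0.53 ± 0.077 (adjusted p = 7.4e-05) and MYLIP at -0.45 ± 0.097 (adjusted p = 0.0019). In R1881 7 were higher and 4 lower (all genes: 21.8% and 18.8%). MVD had 1.06 ± 0.14 (adjusted p = 3.0e-05), ABCG1 0.91 ± 0.12 (adjusted p = 2.4e-05) and SCAP 0.77 ± 0.13 (adjusted p = 2.4e-04), and MSMO1 was lower at -0.93 ± 0.18 (adjusted p = 7.0e-04). Calls held whichever library was left out for 8 of the 11 members in vehicle, the others being IDI1, INSIG2 and NPC2, and for 7 of the 11 in R1881, the others being PMVK, EBP, INSIG1 and INSIG2. In R1881 there were 7 calls without UPF1 R1881 replicate 1. Without both UPF1 R1881 replicates 1 and 2 there were 6, with MVK (0.22), PMVK (0.08), EBP (0.25), INSIG2 (-0.23), SCAP (0.56) and NPC2 (0.37) no longer called and MYLIP (-0.46) called.

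The members also varied between replicate libraries, along an axis shared with many other genes. The first component of the within-group deviations of all tested genes held 41.2% of that variance. Across the 18 libraries, 8 members followed it with a Pearson r above 0.5: SC5D (0.97), INSIG2 (0.94), STARD4 (0.93), SOAT1 (0.92), IDI1 (0.90), HMGCS1 (0.87), MSMO1 (0.77) and CYP51A1 (0.63). A further 18 went the opposite way, with r below -0.5, the most extreme being SCARB1 (-0.97), NR1H2 (-0.95) and TM7SF2 (-0.94). Among all 15390 genes 30.8% had r above 0.5 and 30.5% below -0.5, against 24.2% and 54.5% of the members. Control R1881 replicate 1 had the lowest score (-0.37) and UPF1 R1881 replicate 3 the highest (0.40). The third library in accession order scored above 0 in all 6 groups, from 0.07 to 0.40. The first scored 0.24 in control vehicle, -0.33 in UPF1 vehicle and -0.14 in RCOR1 vehicle. With R1881 the first scored -0.37 with control siRNA, -0.27 with UPF1 siRNA and -0.25 with RCOR1 siRNA. The labels do not say whether libraries at the same place in that order were handled together, and no fit held a block for that place. By construction the component has a mean of 0 in every group, and its part in the differences between groups was not tested. SQLE (0.31), INSIG1 (0.20), ABCA1 (0.10), MYLIP (-0.05), ACAT2 (-0.13), FDFT1 (-0.14) and HSD17B7 (-0.23) followed it least. These coefficients describe libraries that share their processing, and the members are among the genes from which the component was computed.

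**Figure D4:**
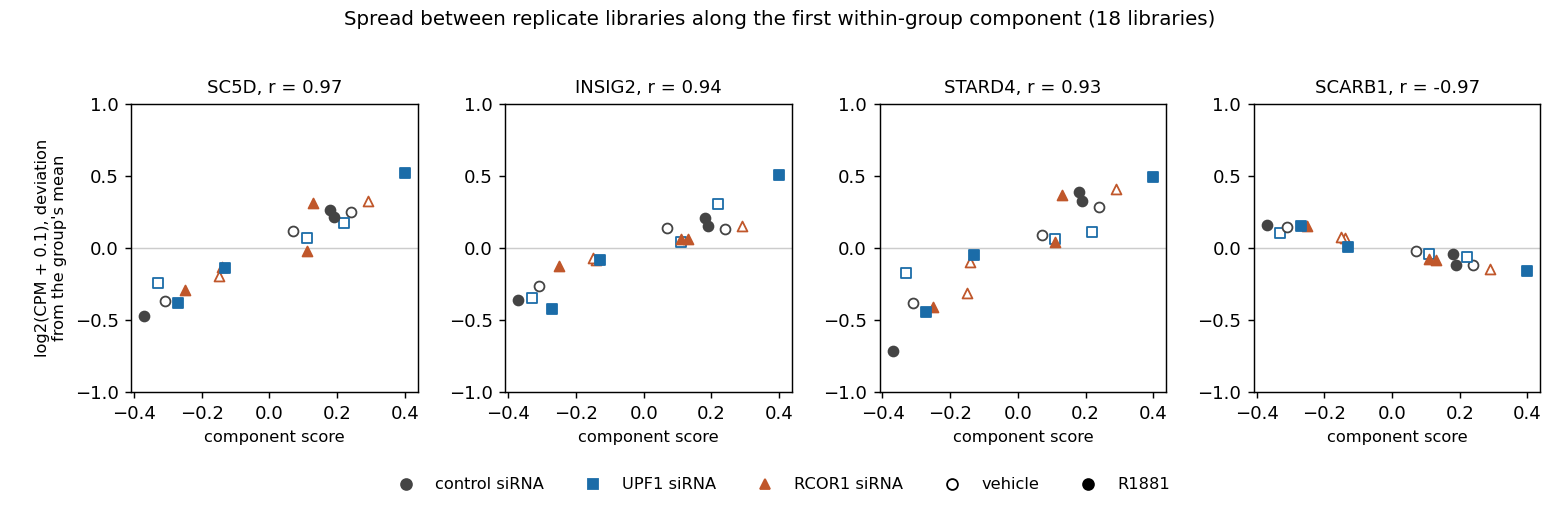
Deviation of SC5D, INSIG2, STARD4 and SCARB1 from their group's mean, in log2(CPM + 0.1), against the score of each of the 18 libraries on the first within-group component. Marker shape and colour give the siRNA and filling the treatment, and r is Pearson's coefficient. SC5D, INSIG2 and STARD4 climb along the component (r = 0.97, 0.94 and 0.93) and SCARB1 descends (r = -0.97).

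A wider list of 48 other genes of cholesterol metabolism was set beside the members, of which 40 passed the filter. With control siRNA R1881 raised 14 and lowered 5 of the 40, with UPF1 siRNA 15 and 7, and with RCOR1 siRNA 15 and 8. The shares called, 47.5%, 55% and 57.5%, stand beside 37.7%, 41.6% and 31.2% of all genes. With UPF1 siRNA 12 were called without UPF1 R1881 replicates 1 and 2. In the RCOR1 arm the 23 calls became 12 without RCOR1 vehicle replicate 1, 13 without RCOR1 vehicle replicate 2 or RCOR1 R1881 replicate 2, and 15 without RCOR1 R1881 replicate 3. Their medians were 0.12, 0.11 and 0.21, below the members' medians of 0.70, 0.50 and 0.66. UPF1 siRNA raised 11 and lowered 10 in vehicle and raised 10 and lowered 10 in R1881, and RCOR1 siRNA raised 6 and lowered 4 in vehicle and raised 1 and lowered 5 in R1881. These are 52.5%, 50%, 25% and 15% of the 40, beside 34.6%, 33.3%, 11.5% and 12.4% of all genes. UPF1 siRNA in R1881 gave 5 calls without UPF1 R1881 replicates 1 and 2. RCOR1 siRNA gave 6 in vehicle without RCOR1 vehicle replicate 2, and in R1881 2 without control R1881 replicate 1 and 3 without control R1881 replicate 2 or RCOR1 R1881 replicate 3. With only the groups compared in the fit, RCOR1 siRNA gave 4 calls in vehicle and 1 in R1881. VLDLR, a lipoprotein receptor of the cell surface, rose with R1881 in all 3 arms, by 1.24 ± 0.1 (adjusted p = 9.0e-08), 1.07 ± 0.1 (adjusted p = 4.9e-07) and 1.15 ± 0.1 (adjusted p = 2.8e-07). Its libraries were 27.4, 21.9 and 26.5 CPM in control vehicle and 52.2, 64.2 and 63.1 in control R1881, without overlap. LRP1, a large endocytic receptor, fell, with log2 fold changes of -1.39 ± 0.16 (adjusted p = 3.6e-06) with control siRNA and -1.41 ± 0.16 (adjusted p = 4.7e-06) in the RCOR1 arm. In the UPF1 arm LRP1 was not called with a fall of at least 1 on the log2 scale. ACLY, which supplies cytosolic acetyl-CoA, rose by 1.10 ± 0.074 (adjusted p = 8.4e-09) with UPF1 siRNA and by 0.98 with control siRNA. In the RCOR1 arm ACLY was not called with a rise of at least 1.

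GRAMD1C, a sterol transporter at contacts between membranes, fell with R1881, with log2 fold changes of -1.26 ± 0.43 (adjusted p = 0.028) with control siRNA and -2.46 ± 0.41 (adjusted p = 1.6e-04) with UPF1 siRNA, and was raised by UPF1 siRNA in vehicle at 1.48 ± 0.38 (adjusted p = 0.0068). In the RCOR1 arm it was not called with a fall of at least 1. OSBPL8, an oxysterol-binding protein at such contacts, rose with R1881 in the RCOR1 arm at 1.73 ± 0.57 (adjusted p = 0.03) and was lower with UPF1 siRNA in R1881 at -1.57 ± 0.57 (adjusted p = 0.045). It was also lower with UPF1 than with RCOR1 siRNA in R1881, at -2.03 ± 0.58 (adjusted p = 0.011). Its UPF1 R1881 libraries were 27.9, 30 and 114 CPM, far apart from each other, and replicate 3 overlapped the control R1881 libraries at 98.6, 203 and 208. CYP46A1, a cholesterol hydroxylase, was called in the UPF1 arm at 1.10 ± 0.38 (adjusted p = 0.031) with all 18 libraries at or below 1.03 CPM.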

How the data were processed

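Total RNA was extracted with Trizol, and libraries were made after depletion of ribosomal RNA, per the labels' protocols. The authors deposited 1 table of raw read counts per gene for the 18 libraries, without normalization. Per the submitters' processing notes, bcl2fastq 2.20, STAR 2.7.9a and featureCounts of Subread 1.6.4 were used with GRCh38.p7. They name no settings, and how strand was treated, which reads were filtered and which annotation release was counted were not given in the sources used here.

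Counts were scaled by TMM and fitted in edgeR 4.0.16 (R 4.3.3, limma 3.58.1) with 1 mean per group over all 18 libraries, after filterByExpr had kept 15390 of 60649 genes. Each of 11 contrasts was tested by the quasi-likelihood F test, with Benjamini-Hochberg adjustment over all kept genes and a threshold of 0.05. A gene is called where its adjusted p is under that threshold. Standard errors were derived from the fold change and the F statistic. The 140 symbols used by more than 1 gene were followed by identifier, and no member was among them. Alternatives were DESeq2 1.42.0, other scalings, no filter, only the groups compared, the first within-group component as a covariate, and libraries left out.

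All members are named in the text or in its counts. Values in every library are given for members called with a log2 fold change of at least 1 in size in any comparison, or whose direction goes against most of their role group. Of the wider list, genes called at that size are named, and UPF1, RCOR1, KLK3, TMPRSS2 and FKBP5 serve as checks. Members and lists were chosen with earlier results of these data known. Groups come from the labels' treatment and transfection fields, and replicate numbers only name libraries in accession order. Promoter windows are from RefSeq on GRCh38.p14 and gene models from GENCODE 29.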

Additional observations from a re-analysis of the deposited data

How the results depend on the processing

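No paired or blocked analysis was run. The labels carry no replicate numbers, and the running numbers in the titles are not said to mark a shared culture, batch or day. A block by place in accession order could have been fitted and was not, so the standard errors take no account of one. No member reversed its direction as a called value under any alternative. Of 363 results (33 members in 11 comparisons), DESeq2 size factors in edgeR changed the call of 11 (10 lost, 1 gained), the DESeq2 test of 11 (8 lost, 3 gained), scaling by library size of 30 (22 lost, 8 gained) and no filter of 26 (18 lost, 8 gained). The cause of these changes was not tested.

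For the alternatives below, the shares of all genes called are not given here. Changes in the members' counts are therefore no result about cholesterol genes in particular. Members called moved by over 1.5 times, or from 0, as follows. With the first within-group component as a covariate, which removes spread between replicates by its construction, calls went from 14 to 24 for UPF1 siRNA in vehicle, 11 to 20 in R1881, 6 to 15 for RCOR1 siRNA in vehicle and 8 to 17 in R1881. They went from 0 to 11 in the UPF1 interaction, 0 to 3 in the RCOR1 interaction, and 11 to 20 for UPF1 against RCOR1 in vehicle and 11 to 20 in R1881. With only the groups compared in the fit, and so fewer libraries, they were 7 for UPF1 siRNA in R1881, 0 for RCOR1 siRNA in vehicle and 4 for RCOR1 siRNA in R1881. RCOR1 siRNA in vehicle gave 2 with DESeq2 size factors, 3 with library size alone and 3 without a filter, and in R1881 it gave 4 with library size alone. The UPF1 interaction gave 2 with DESeq2 and 3 without a filter. Without UPF1 R1881 replicates 1 and 2 there were 6 for UPF1 siRNA in R1881 and 6 for UPF1 against RCOR1 in R1881.

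Leaving out each library in turn gave 25 to 28 calls for R1881 with control siRNA, 22 to 24 with UPF1 siRNA and 23 to 26 with RCOR1 siRNA. UPF1 siRNA gave 11 to 14 in vehicle and 6 to 12 in R1881, and RCOR1 siRNA 1 to 6 and 4 to 9. The UPF1 interaction gave 0 to 4 and the RCOR1 interaction 0 throughout. UPF1 against RCOR1 gave 8 to 11 in vehicle and 7 to 13 in R1881. Depth limits ABCA1 most, at 0 to 11 counts per library with R1881.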
